A study of Mus musculus with 4 samples.

Results

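Bone morphogenetic proteins (BMPs) are secreted ligands of the TGF-β superfamily. They bind paired type I and type II receptor kinases, which activate the receptor-regulated Smads. The active Smads enter the nucleus with a common partner and switch on target genes, among them the Id genes and the inhibitory Smads, which turn the signal down again. In the early heart, BMP signals help to specify cardiac progenitors, pattern the atrioventricular canal and outflow tract, start the formation of the endocardial cushions and, through Bmp10, keep the trabecular muscle growing. The genes described here are 10 of the 30342 named genes and transcripts on the array. They are the ligands Bmp2, Bmp4, Bmp5, Bmp6, Bmp7 and Bmp10, the receptors Bmpr1a and Bmpr2, the feedback inhibitor Smad6 and the target Id2. They were taken as every non-control probe that carries one of these 10 gene names, which gave 11 probes. Bmp4 had 2 probes and the other genes 1 each. A probe was tested where one of the channels, mutant or control, was well above background on every array, and 10 of the 11 passed, 1 for each gene.

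The mutant hearts were Nkx2.5Cre; Hdac3f/f, in which a Cre recombinase driven by Nkx2.5, a gene active in cardiac progenitors, was combined with floxed alleles of Hdac3, a histone deacetylase. The controls were Hdac3f/f littermates with no Cre named, so loss of Hdac3 cannot be told apart from the presence of Cre. All embryos were of mixed CD1/B6/129 background, and their hearts were microdissected at embryonic day 9.5. Each of 4 two-colour arrays paired RNA from 3 pooled mutant hearts with RNA from 3 pooled control hearts (n = 4 pairs of pools), and the labels call the 4 pairs biological replicates. In such bulk RNA, fewer cells of a type and less RNA per cell cannot be told apart.

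The direction of every ratio depends on a conflict between the sources. The labels put mutant RNA in the Cy5 dye on each array. The authors' deposited ratios, in columns named as mutant against wild type, followed Cy5 over Cy3 in replicates 1 and 2 (r = 0.921 and 0.925 over 5756 bright probes) and ran against it in replicates 3 and 4 (r = -0.991 and -0.939). The direction of the deposited columns is used here and is not settled, and "mutant" means the pool that these columns read as mutant. Read this way, the arrays of opposite orientation correlated at -0.42 (replicates 1 and 4), -0.26 (2 and 4), -0.046 (1 and 3) and -0.069 (2 and 3) over 39392 probes, and at the same sizes above 0 as Cy5 over Cy3. Replicates 1 and 2 correlated at 0.57, and replicates 3 and 4 at 0.45, in both readings. Means with all arrays as labelled are therefore given for the 10 genes, the other BMP genes and the marker lists. Hdac3 itself had log2 ratios of -0.22, -0.50, -0.52 and -1.15 on arrays 1 to 4 in the deposited direction. The mean was -0.60 ± 0.39 (SD, n = 4; limma adjusted p = 0.579), with all 4 arrays below 0, and 0.24 as labelled. The place of its probe against the floxed exons was not analysed here.

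The share of probes well above background was 66.6% to 71.2% in each channel, and no spot was saturated. All 8 myocardial markers were well above background in every channel. The descriptions of replicates 2 to 4 mention embryonic stem cells, whereas their other labels name hearts. Of 6 stem cell markers, Pou5f1 was not well above background in any channel and 5 passed the filter. Their summed signal ran from 2464 to 2810 in mutant pools and from 2383 to 2651 in control pools.

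The ratios rest on single 60-base probes, so their sequences are shown for the genes on which the results turn. Probe positions are in mm9, and bases are counted from 1 at the 5′ end of the probe. Bmp4 was covered by a bright probe at chr14:47003391-47003450 (minus strand) and by a dim one nearer the transcript's end, at chr14:47003198-47003257. The dim probe has a GC content of 15.0%, against a median of 41.7% over 39429 probes. Its bases 22 to 51 and the same stretch of the Bmp2 probe (chr2:133388260-133388319, plus strand) hold the letters AATAAA, a polyadenylation signal, shown in capitals. On the strand of the probe, 12.6% of all probes hold these letters. The stretches of the Bmp6 probe (chr13:38591479-38591538, plus strand) and the Smad6 probe (chr9:63800980-63801039, minus strand) are bases 1 to 30. The Bmp10 probe (chr6:87384427-87384486, plus strand) is whole, and capitals mark the TAG that closes its first reading frame, which holds no earlier stop codon.
Bmp4, dim probe: atattaaaagaaAATAAAatgagtcattat
Bmp2: gccaaagtactaAATAAAatataatatttc
Bmp6: tgtctactgttgtagttacgtgttttgtgt
Smad6: cttttttaaagagaattatacagtagaact
Bmp10: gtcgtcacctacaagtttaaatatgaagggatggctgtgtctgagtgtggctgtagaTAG

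None of the 10 genes passed the test between mutant and control pools. Their adjusted p-values ran from 0.579 to 0.994 (limma, Benjamini-Hochberg adjustment over the 25483 probes tested). Of all these probes, 0 passed at an adjusted p below 0.05 (0% called in either direction). At an unadjusted p below 0.05, limma gave 930 probes higher (3.65%) and 1244 lower (4.88%) in mutant pools, 8.53% together, and 1 of the 10 genes, Smad6, was among the higher ones. The higher share of these probes was 42.8%, and 66.6% with median centring of scanner signals. The mean log2 ratio was above 0 for 5 genes and below 0 for 5, with a median of 0.049. Over all tested probes the mean was above 0 for 51.9% and below 0 for 48.1%, and their median was 0.0063. Smad6 was the single gene of the 10 with one sign on all 4 arrays, where 9.63% of tested probes were above 0 on all 4 and 10.2% below, 19.8% together. The smallest two-sided p of an exact sign test on 4 pairs is 0.125.

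**Figure D1:**
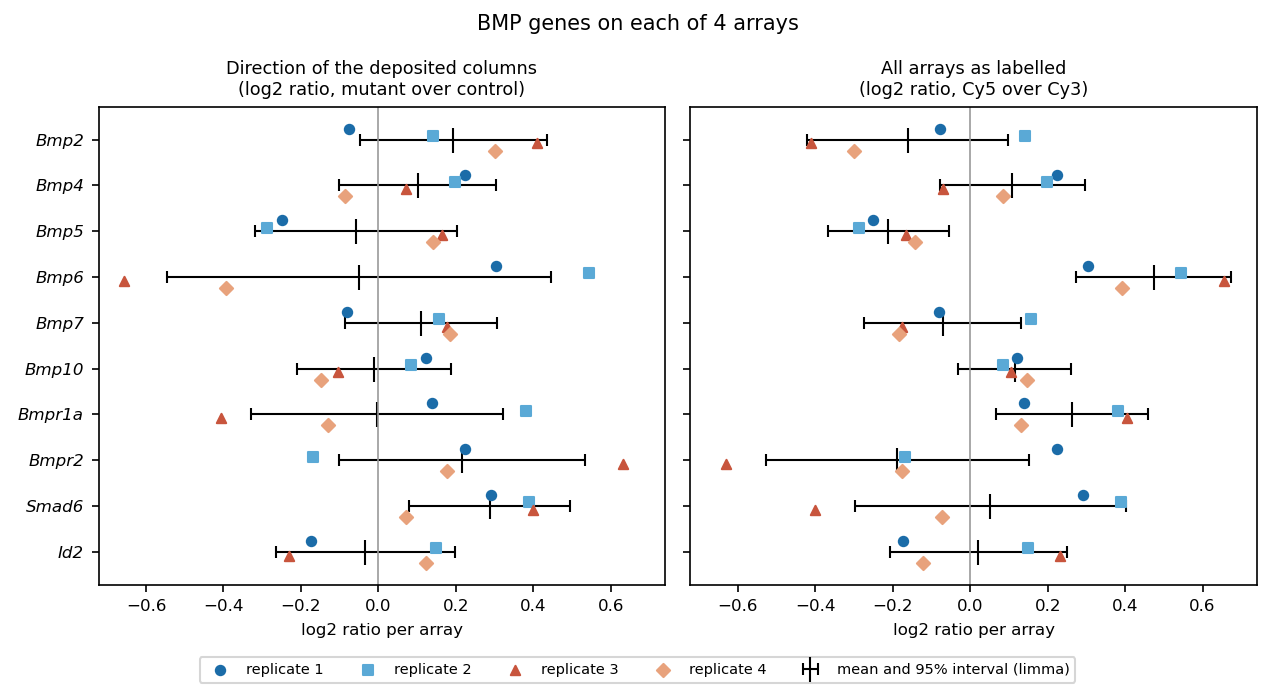
Log2 ratio of each of the 10 genes on each array (symbols), with the mean and its 95% interval from limma (black), as mutant over control in the direction of the deposited columns (left) and as Cy5 over Cy3 with all arrays as labelled (right). On the left Smad6 alone lies above 0 on all 4 arrays, and on the right Bmp6, Bmp10 and Bmpr1a lie above 0 and Bmp5 below 0 on all 4.

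Smad6, the inhibitory Smad that BMP signals induce and that blocks the receptor-regulated Smads, had the highest mean of the 10 genes. Its log2 signals were 12.50, 12.56, 12.80 and 12.51 in the mutant pools of replicates 1 to 4, against 12.21, 12.17, 12.40 and 12.44 in the control pools. Each mutant pool thus lay above every control pool, a separation without overlap that 2.52% of tested probes showed in one direction or the other. The log2 ratios were 0.29, 0.39, 0.40 and 0.072, with replicate 4 nearest 0. Their mean was 0.29 ± 0.15 (SD, n = 4), which is 22.1% higher in mutant pools. The 95% interval of 0.080 to 0.50 left out 0 before adjustment, and the limma adjusted p was 0.579. By unadjusted p, Smad6 ranked 571 of the 25483 probes. As labelled, the mean was 0.052 with 2 arrays on either side of 0. With median centring of scanner signals in place of the deposited values, replicate 4 read -0.011 and no gene of the 10 kept one sign.

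Endocardium, the inner lining in which Smad6 is known to be expressed, was represented by 6 markers, all measured. Of these, Nfatc1, a factor of the cushion endocardium, had ratios of 0.32, 0.38, 0.49 and 0.17, and like Smad6 was lowest in replicate 4 and highest in replicate 3. Over all tested probes the SD of the log2 ratios was 0.44 in replicate 3, against 0.21, 0.23 and 0.25 in replicates 1, 2 and 4. The marker list as a whole had 3 means above 0 and 3 below, with medians of 0.19, 0.19, -0.075 and -0.057 on arrays 1 to 4. The markers with a mean below 0, Tek, Pecam1 and Npr3, were lowest in replicate 3, at -1.08, -0.29 and -0.40. Its summed signal ran from 13809 to 15654 in mutant pools and from 11795 to 15903 in control pools. The part of endocardial content in the Smad6 ratio was not tested.

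Id2, a helix-loop-helix protein that blocks other factors from binding DNA and a common BMP target, was on either side of 0. Its log2 signals were 13.59, 13.98, 13.77 and 14.36 in mutant pools, against 13.76, 13.83, 14.01 and 14.23 in control pools. The groups overlapped across most of their range. Its ratios were -0.17, 0.15, -0.23 and 0.12, with a mean of -0.033 ± 0.20 (SD, n = 4) and a 95% interval of -0.27 to 0.20 (adjusted p = 0.922). As labelled the mean was 0.021.

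The 250 bases before the annotated start are shown for these 2 genes, because both are known outputs of BMP signalling. They were read from a table of RefSeq promoters in assembly GRCm38.p6, in which 8 of the 10 genes were matched (Bmp2 and Bmp7 were not analysed here), at chr9:64022060-64022309 for Smad6 and chr12:25096093-25096342 for Id2, both on the minus strand. The motifs searched, both linked to Smad binding, were GGCGCC, which is its own reverse complement, and GTCTG with its reverse complement CAGAC. The last base of one can be the first of another. Capitals mark a match. Id2 holds 1 GGCGCC and no GTCTG, and Smad6 holds neither. Over 32851 promoter windows of this length, 9.59% hold GGCGCC and 42.2% hold GTCTG on either strand.
Smad6: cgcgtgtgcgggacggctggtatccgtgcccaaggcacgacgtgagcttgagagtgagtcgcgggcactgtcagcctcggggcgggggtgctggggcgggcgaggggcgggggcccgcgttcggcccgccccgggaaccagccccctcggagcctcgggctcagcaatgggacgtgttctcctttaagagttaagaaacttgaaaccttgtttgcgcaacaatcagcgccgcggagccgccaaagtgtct
Id2: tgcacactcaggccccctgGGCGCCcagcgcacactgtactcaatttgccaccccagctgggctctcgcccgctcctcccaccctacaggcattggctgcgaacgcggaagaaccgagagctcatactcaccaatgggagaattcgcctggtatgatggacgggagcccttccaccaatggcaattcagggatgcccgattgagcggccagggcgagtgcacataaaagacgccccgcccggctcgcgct

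Bmp2, the myocardial ligand that patterns the atrioventricular canal and starts cushion formation, had log2 signals of 11.16, 11.43, 11.80 and 11.62 in mutant pools and 11.25, 11.28, 11.39 and 11.33 in control pools. The mutant pools of replicates 2, 3 and 4 lay above every control pool, and that of replicate 1 lay below them all. The mutant pools were the more variable, with an SD of 0.27 against 0.063 in control pools. The ratios were -0.077, 0.14, 0.41 and 0.30, with a mean of 0.19 ± 0.21 (SD, n = 4; 95% interval -0.047 to 0.43; adjusted p = 0.604). As labelled the mean was -0.16. Of the atrioventricular canal and outflow tract markers, Tbx2 and Tbx3 are themselves known BMP targets. Tbx2 had ratios of 0.017, 0.26, 0.61 and 0.32, and Tbx3 had 0.011, 0.30, 0.84 and 0.24. All 3 genes were thus lowest in replicate 1 and highest in replicate 3. These arrays had the smallest and the largest SD of log2 ratios over all tested probes (0.21 and 0.44). The third marker measured, Vcan, had a mean of -0.095. The summed signal of the list was 11708 to 15510 in mutant pools and 11717 to 15526 in control pools, and its part in the Bmp2 ratio was not tested.

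Bmp4, a ligand of the outflow tract and pharyngeal region, was read by its bright probe. Its log2 signals were 13.16, 13.41, 13.27 and 13.14 in mutant pools and 12.94, 13.21, 13.20 and 13.22 in control pools, with overlap. The ratios were 0.22, 0.20, 0.071 and -0.085, and their mean of 0.10 ± 0.14 (SD, n = 4; adjusted p = 0.699) was almost the same as labelled, at 0.11. The mean was 0.061 without replicate 1 and 0.16 without replicate 4. The dim probe was not well above background in any of the 8 channels and was not tested.

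Bmp7, which acts with other BMPs of its subgroup in the cushions, had ratios of -0.080, 0.16, 0.18 and 0.19. The last 3 lay close together and replicate 1 stood apart. The mean was 0.11 ± 0.13 (SD, n = 4; adjusted p = 0.676), and -0.072 as labelled. Without replicate 1 it was 0.17.

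Bmp6, Bmp10, Bmp5 and Bmpr1a shared another pattern, in which replicates 1 and 2 lay on one side of 0 and replicates 3 and 4 on the other. Bmp6, a ligand expressed in cushion and outflow tissue, showed it most widely. Its log2 signals were 8.43, 8.52, 7.98 and 8.35 in mutant pools, against 8.21, 8.08, 8.39 and 8.79 in control pools. The ratios were 0.30, 0.54, -0.66 and -0.39, with a mean of -0.050 and an SD of 0.57, against a median SD of 0.19 over all tested probes. The 95% interval of -0.55 to 0.45 was the widest of the 10 genes (adjusted p = 0.948). With all arrays as labelled the same numbers read 0.30, 0.54, 0.66 and 0.39, all with more Cy5 than Cy3. That mean was 0.47 ± 0.16 (SD, n = 4; 95% interval 0.27 to 0.67; limma adjusted p = 0.0681), which did not pass either. The mean spot signal of the Bmp6 probe was 107 to 626, against local background medians of 21 to 70.5.

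Bmpr1a, the type I receptor also called Alk3 and needed in myocardium for cushion and wall formation, had ratios of 0.14, 0.38, -0.41 and -0.13. Its log2 signals were 12.17, 12.47, 11.91 and 12.37 in mutant pools and 12.03, 12.09, 12.30 and 12.50 in control pools, and the groups overlapped. The mean was -0.0043 ± 0.34 (SD, n = 4; adjusted p = 0.994), and 0.26 as labelled (adjusted p = 0.241). Bmp10, the ligand of trabecular muscle, had ratios of 0.12, 0.085, -0.11 and -0.15 with a mean of -0.011 ± 0.13. Its as-labelled values ran from 0.085 to 0.15, with a mean of 0.11. The mean spot signal of the Bmp10 probe was 67.4 to 207, against local background medians of 24.5 to 76.0. Bmp5, a close relative of Bmp7, ran the other way, with ratios of -0.25, -0.29, 0.17 and 0.14, a mean of -0.058 ± 0.24 and an as-labelled mean of -0.21 (adjusted p = 0.241).

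As labelled, therefore, 3 of the 10 genes (Bmp6, Bmp10 and Bmpr1a) were above 0 on all 4 arrays and 1 (Bmp5) was below. The as-labelled mean was above 0 for 6 of the 10 genes, against 49.9% of the 25761 probes tested in that direction. Of these probes, 13.2% were above 0 on all 4 arrays and 13.5% below. At an adjusted p below 0.05, 1.32% of probes were called higher and 0.0699% lower in Cy5, and none of the 10 genes was among them. Of the 8 myocardial markers, 5 were above 0 in replicates 1 and 2 and below 0 in replicates 3 and 4, that is, above 0 on all 4 arrays as labelled. The list had medians of 0.10, 0.34, -0.11 and -0.40 on arrays 1 to 4, with 4 means above 0 and 4 below, and an as-labelled median of 0.22. Its summed signal ran from 877723 to 1031667 in mutant pools and from 780863 to 1106193 in control pools. Myh6, the atrial-type myosin heavy chain, had ratios of 0.35, 0.75, -0.26 and -0.42. Their part in the ratios of Bmp6, Bmp10 and Bmpr1a was not tested. With all arrays as labelled, dye and genotype cannot be told apart, since the mutant is then always in Cy5.

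**Figure D2:**
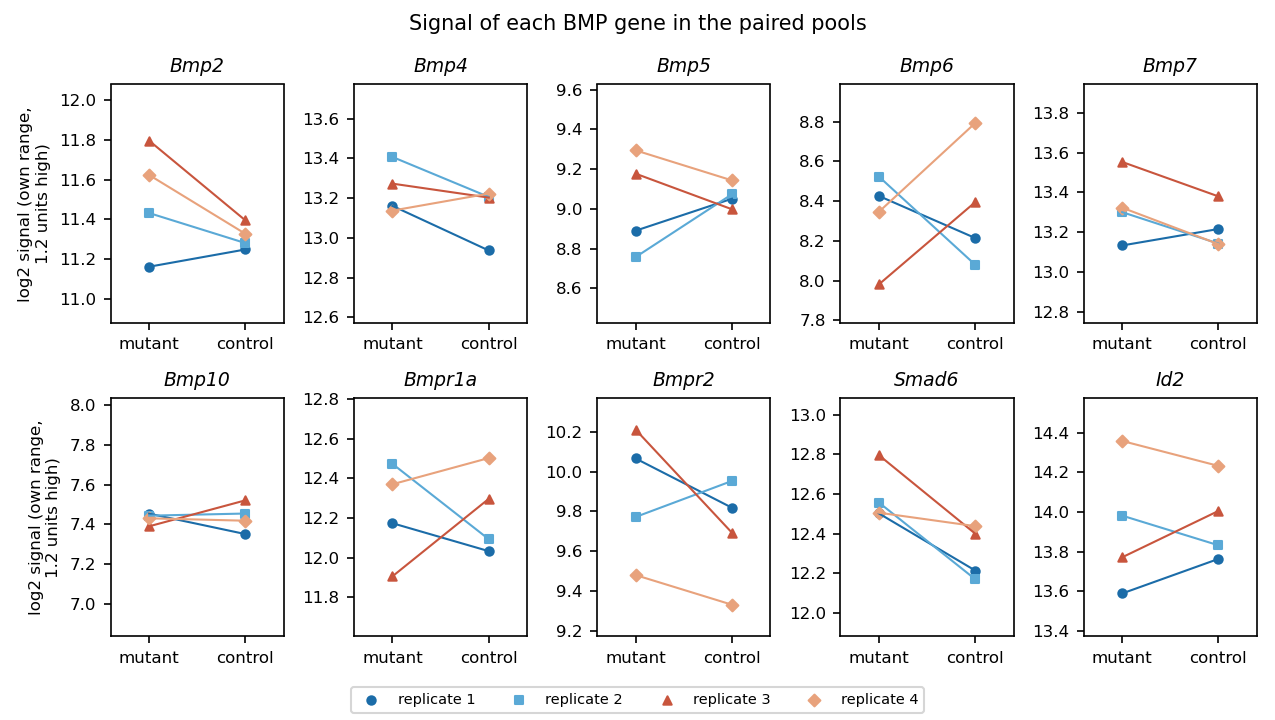
Log2 signal (normexp, loess and between-array normalization) of each gene in the mutant and control pools, with a line joining the 2 pools of one array. Each panel has its own range and all are 1.2 log2 units high. The Smad6 lines all descend from mutant to control, while the Bmp6 and Bmpr1a lines cross.

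Bmpr2, the type II receptor whose human counterpart is mutated in heritable pulmonary hypertension, had log2 signals of 10.07, 9.77, 10.21 and 9.48 in mutant pools and 9.82, 9.95, 9.69 and 9.33 in control pools. Replicate 4 was the lowest in both groups. The ratios were 0.22, -0.17, 0.63 and 0.18, and their mean of 0.22 ± 0.33 (SD, n = 4; 95% interval -0.10 to 0.53; adjusted p = 0.633) rested in large part on replicate 3. Without that array it was 0.077, and without replicate 2 it was 0.34. As labelled it was -0.19.

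The rest of the pathway was followed with 57 other BMP genes in 6 roles, of which 53 had a probe past the filter. None passed over all probes in either direction (limma, smallest adjusted p = 0.579, 0% called). At an unadjusted p below 0.05, 4 of the 53 were higher and 2 lower, against 3.65% and 4.88% of all tested probes. Of the 53, 35 had a mean above 0 and 18 below, with a median of 0.033, against 51.9% above 0 and a median of 0.0063 over all tested probes. As labelled, 26 of these 53 means were above 0.

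Among the targets, 11 of 13 had a mean above 0, the median was 0.14 and 5 were above 0 on all 4 arrays, against 9.63% of all tested probes. Tbx3 had a mean of 0.35 ± 0.35, Tbx2 of 0.30 ± 0.24 and Gata4, a cardiac zinc finger factor, of 0.18 ± 0.12 (SD, n = 4). As labelled, 6 of the 13 means were above 0 and the median was -0.0035, with Tbx3 at -0.19, Tbx2 at -0.16 and Gata4 at -0.0185. Of the Id genes beside Id2, Id1 had ratios of -0.13, -0.12, 0.72 and 0.33, Id3 had a mean of 0.12 and Id4 of -0.056. The Id genes thus lay on both sides of 0. As labelled, Id1 had -0.32, Id3 -0.0865 and Id4 0.0098.

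Inside the cell, 4 of 5 measured inhibitors had a mean above 0, and 4 of 5 as labelled. Skil, a corepressor that binds Smads, was above 0 on all 4 arrays with a mean of 0.23 ± 0.11 (SD, n = 4; other probe 0.19). Smad7, the other inhibitory Smad, had a mean of 0.15 ± 0.38. Smurf2, a ubiquitin ligase for Smads, had -0.33 ± 0.32 by its brightest probe, whereas its other probes read 0.03 and 0.19. The as-labelled means were 0.036 for Skil, 0.32 for Smad7 and 0.22 for Smurf2. Of the 4 Smad effectors, 1 had a mean above 0, and 3 as labelled. Smad1, a receptor-regulated Smad, was below 0 on all 4 arrays with a mean of -0.32 ± 0.33, but its other probe read 0.02. Smad4, the common partner, had 0.15 ± 0.32 with the other probe at -0.14, and Smad9 had -0.059 ± 0.18. As labelled, Smad1 had 0.16, Smad4 0.26 and Smad9 -0.045.

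Outside the cell, 9 of 14 measured antagonists and modulators had a mean above 0, and 6 of 14 as labelled. Fst, follistatin, which traps activins and some BMPs, had the highest mean of the 53 genes, with ratios of 0.27, 0.67, 0.94 and 1.16 (mean 0.76 ± 0.39 SD, n = 4; adjusted p = 0.579). As labelled it averaged -0.29. Nbl1, a secreted antagonist, had 0.22 ± 0.32 and Twsg1, a modulator of ligand release, -0.26 ± 0.32, against as-labelled means of -0.25 and 0.25. The other ligands were divided, with 4 of 7 above 0, and 2 of 7 as labelled. Of these, Gdf2 had a mean of -0.24 ± 0.23, Gdf5 of 0.19 ± 0.19 (other probe 0.04) and Bmp8a of 0.10 ± 0.12. Their as-labelled means were -0.11, -0.14 and -0.076. Of 10 other receptors and coreceptors 6 were above 0, and 5 as labelled. Tgfbr3, a coreceptor, had -0.17 ± 0.096 and was below 0 on all 4 arrays, Acvrl1, an endothelial type I receptor, had 0.13 ± 0.15 and Eng, its coreceptor, 0.17 ± 0.42. As labelled, Tgfbr3 had 0.0245, Acvrl1 0.057 and Eng -0.35.

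**Figure D3:**
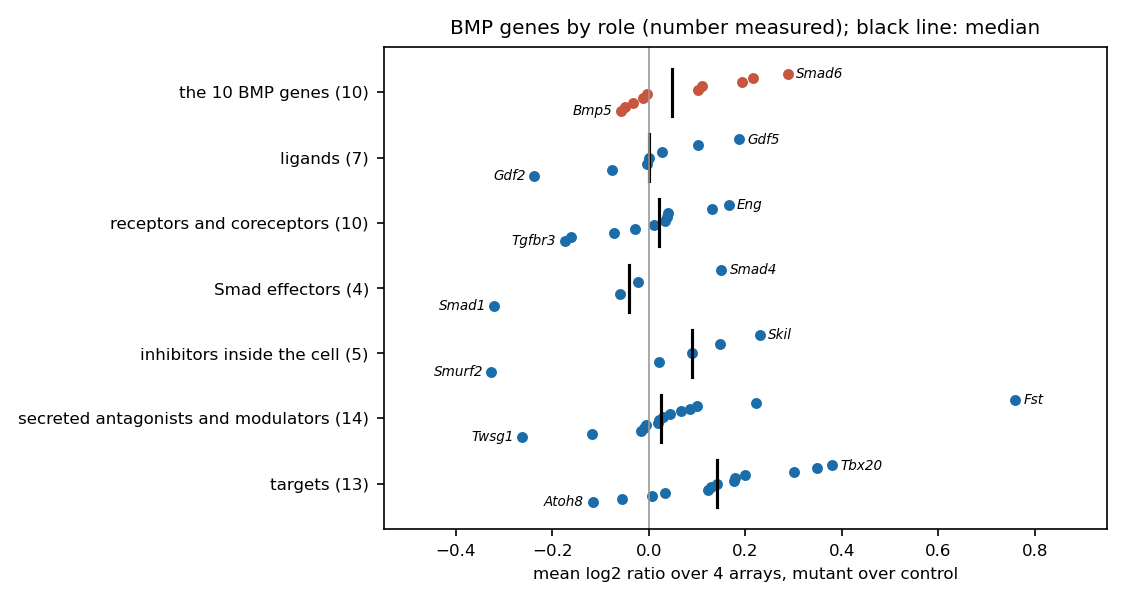
Mean log2 ratio over 4 arrays (mutant over control, direction of the deposited columns) of the 10 BMP genes (red) and of 53 other BMP genes by role (blue), with the median of each role as a black line. The medians lie between -0.041 for the Smad effectors and 0.14 for the targets (-0.0035 as labelled), and no gene passed the test.

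Among the other 62 measured BMP genes, those nearest to Smad6 over the 4 log2 ratios were Skil, with a root mean square difference of 0.0855, Gata4, with 0.132, and Acvrl1, with 0.16. The Gata4 ratios were 0.14, 0.19, 0.34 and 0.052. With 4 arrays this likeness is a description.

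Marker lists of neighbouring cell types were read beside the BMP genes. All 4 second heart field markers had a mean above 0, with list medians of 0.0044, 0.45, 0.60 and 0.35 on arrays 1 to 4 and a summed signal of 1351 to 2564 in mutant pools and 1370 to 1886 in control pools. The 5 endoderm markers measured of 6 were also above 0, with medians of 0.18, 0.42, 0.090 and 0.23 and sums of 1204 to 1439 in mutant pools and 1010 to 1164 in control pools. All 5 primitive erythroid markers had a mean below 0, with medians of -0.16, -0.64, -0.37 and -0.47 on arrays 1 to 4. Their sums were 200564 to 377938 in mutant pools and 318829 to 416482 in control pools. All 4 epicardial markers had a mean below 0 too, but their medians were 0.021, -0.585, -0.301 and -0.0745, above 0 in replicate 1. The epicardial sums were 4465 to 9159 in mutant pools and 5424 to 9017 in control pools. Of 4 neural crest markers 2 were measured, 1 on each side of 0, with sums of 635 to 703 and 604 to 670, and Foxd3 was not well above background in any channel. As labelled, the list medians were 0.023 for second heart field, 0.0705 for endoderm, 0.084 for primitive erythroid, 0.014 for epicardium and 0.11 for neural crest, so the erythroid and epicardial medians turned sign. They were 0.062 for endocardium, -0.16 for atrioventricular canal and outflow tract and -0.021 for the stem cell markers. In the deposited direction these medians were 0.022, 0.30 and 0.0725. The atrioventricular canal and outflow tract list and the stem cell list thus turned sign too. The medians of the 10 BMP genes by array were 0.13, 0.15, 0.12 and 0.098, with 6, 8, 6 and 6 of the genes above 0. Over all tested probes, 48.4%, 49.4%, 49.9% and 51.1% were above 0 on arrays 1 to 4. As labelled, the BMP medians of replicates 3 and 4 turn sign, so their common side of 0 depends on the unsettled direction. The median of the BMP means was 0.049, and 0.037 as labelled. The part of tissue content in the BMP ratios was not tested.

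**Figure D4:**
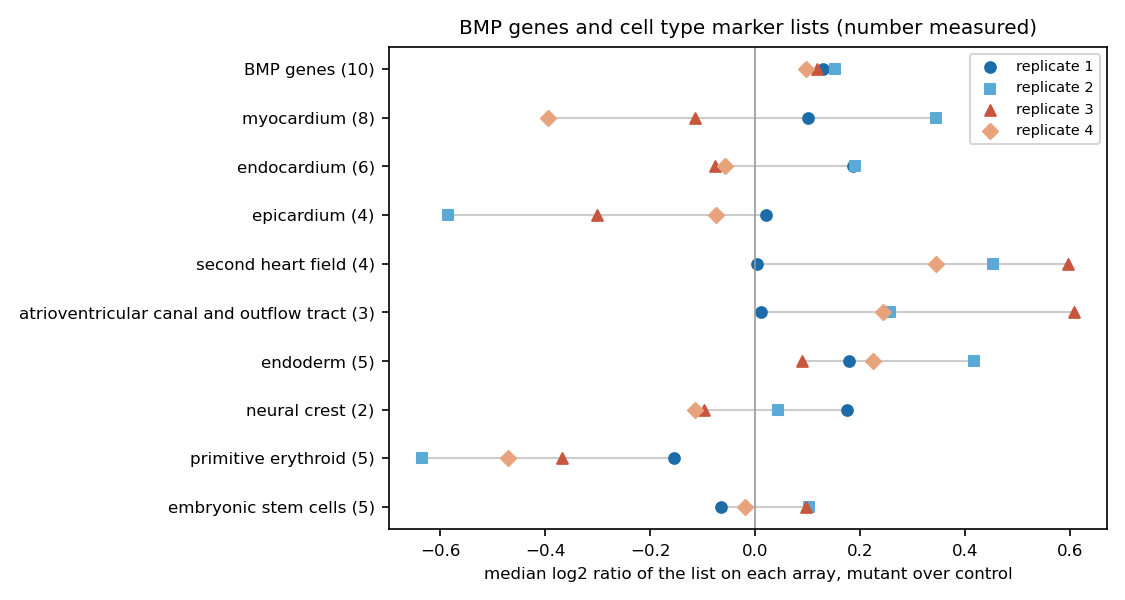
Median log2 ratio on each array (symbols, mutant over control, direction of the deposited columns) of the 10 BMP genes and of 9 cell type marker lists, with the number of genes measured. The BMP medians lie between 0.098 and 0.15, and the median of the BMP means is 0.049 (0.037 as labelled). The erythroid medians lie between -0.64 and -0.16 and turn sign as labelled (median of means 0.084).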

How the data were processed

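The authors deposited a table of log2 ratios whose columns are named for mutant versus wild type, with their normalization not stated in the labels or headers, and scanner output for each array. Per the file headers, the latter holds mean spot and median background intensity, processed intensity and the log10 ratio of Cy5 over Cy3 made with Feature Extraction 11.5.1.1 of Agilent. The version in the submitters' processing notes is 8.5.1.1. Table rows (43173, of which 153 controls) were matched by probe name, control rows left out and spots of one probe averaged. Column medians were -0.029, -0.017, 0.017 and 0.023. Log2 ratios of 25483 of 39429 probes were tested against 0 with lmFit and eBayes (limma 3.58.1, R 4.3.3), and called at a Benjamini-Hochberg adjusted p below 0.05. A gene with several probes was represented by its brightest tested probe. Probes of the other genes were named by accession through RefSeq GRCm38.p6 (27508 matched) or kept the name in the files. The probe names and positions are those of an mm9 array design.

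Levels are log2 signals after normexp (offset 50), loess and Aquantile normalization, with levels of different probes not compared. Mutant and control pools were paired by array. The deviations of mutant and control pools of one array correlated at 0.41, -0.014, 0.34 and 0.53. All arrays lay on 1 slide, so no slide batch could be tested, and the number of arrays limits the precision.

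Genes named beyond the 10 were, for each role, those of smallest unadjusted p (up to 3), the nearest 3 to the leading gene, Hdac3 and cell type markers, and Id1, Id3 and Id4 were chosen after their values were seen. The genes, lists and tests were chosen with earlier results of these data known. The fit was tested on simulated data.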

Additional observations from a re-analysis of the deposited data

Results flagged for a closer look

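Of 33 sets of 4 values examined over the 11 probes (log2 ratio, mutant signal and control signal), 2 had one array far from the others, and chance alone gives about 1 in 20. The log2 ratio of Bmp7 was -0.080 in replicate 1 against 0.16, 0.18 and 0.19 in replicates 2 to 4, a gap of 0.891 of the whole range. The log2 signal of Bmp4 in the control pools was 12.94 in replicate 1 against 13.21, 13.20 and 13.22, a gap of 0.930 of the range.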

How the results depend on the processing

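No gene of the 10 passed at an adjusted p of 0.05 in any setting run, and the lowest was 0.0681, for Bmp6 as labelled. Bmp4 and Smad6 kept their sign in all 15 other settings, although Smad6 fell to 0.052 as labelled, with 2 arrays on either side of 0. Several of these settings could not turn the sign. With no filter, a stricter filter, the mean of a gene's probes or a dye term, the means stayed at 0.102 for Bmp4 and 0.288 for Smad6. As all 4 Smad6 ratios were above 0, leaving out a replicate could not turn its mean either. With all arrays as labelled the sign turned for Bmp10 (0.115), Bmp2 (-0.162), Bmp6 (0.474), Bmp7 (-0.0715), Bmpr1a (0.264), Bmpr2 (-0.189) and Id2 (0.0213). With scanner signals and median centring it turned for Bmp10 (0.0204), Bmpr1a (0.0946) and Id2 (0.0776), and with Agilent's processed signals for Bmp10 (0.00618) and Bmpr1a (0.0138). Leaving out each replicate gave means of -0.0557 to 0.0340 for Bmp10, -0.132 to 0.0190 for Bmp5, -0.248 to 0.152 for Bmp6, -0.133 to 0.130 for Bmpr1a and -0.0940 to 0.0330 for Id2. Genes with one sign on all arrays numbered 4 as labelled, 0 with median centring and 1 to 3 with a replicate left out, with 3 reached without replicate 1. With a replicate left out, one sign is needed on 3 arrays only, which is easier to meet, so these counts do not compare with those over 4. Probes at an unadjusted p below 0.05 numbered 2174, against 3787 as labelled, 1180 with median centring, 3778 with a dye term, 796 with no replicate block and 1585 to 2063 with a replicate left out. Probes called numbered 357 as labelled and 0 to 4 with a replicate left out, with 4 reached without replicate 1. With no replicate block, Smad6 had a mean of 0.284 (limma adjusted p = 0.970). The causes were not tested. The 4 pairs of pools and single probes limit these values, and the dim Bmp4 probe gave no signal well above background.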

Other observations

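The dim Bmp4 probe, below the filter, had the least variable as-labelled ratio of the 11 probes after Bmp10, at -0.34, -0.43, -0.39 and -0.40 (mean -0.39, SD 0.037). Its mean spot signal was 33.9 to 55.8, against local background medians of 27 to 61, so these ratios describe signal at background. In the direction of the deposited columns its mean was 0.0032.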
